A study of Mus musculus with 12 samples.

Results

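A set of 10 genes of the actin cytoskeleton was followed in ribosome profiling of brain and spinal cord from mouse embryos with and without spinal muscular atrophy (SMA). They were chosen by Ensembl identifier: Actb (ENSMUSG00000029580), Actg1 (ENSMUSG00000062825), Pfn1 (ENSMUSG00000018293), Pfn2 (ENSMUSG00000027805), Cfl1 (ENSMUSG00000056201), Tmsb4x (ENSMUSG00000049775), Pls3 (ENSMUSG00000016382), Coro1c (ENSMUSG00000004530), Rhoa (ENSMUSG00000007815) and Capg (ENSMUSG00000056737). All 10 were among the 10481 genes of the deposited count table, and all 10 averaged at least 20 counts in the libraries of each tissue. The list was drawn up with earlier SMA and control values of these same libraries known, so the values in SMA against control are a description of the 10 genes, and no test of that contrast is drawn on as support.

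Ribosome profiling counts footprints, the stretches of mRNA shielded by ribosomes when RNase digests the rest. A footprint count follows both the amount of an mRNA and how many ribosomes it holds. No mRNA level was set beside it here. The embryos were from the Taiwanese SMA mouse (strain 005058) at embryonic day 14.5. Controls were Smn+/-; SMN2tg/0 and SMA embryos Smn-/-; SMN2tg/0, so both genotypes had the human SMN2 transgene and the controls had 1 intact copy of mouse Smn. Each of the 4 groups, control brain, SMA brain, control spinal cord and SMA spinal cord, had 3 libraries. Per the study's description each genotype was profiled in separate embryos. Which brain and which spinal cord library came from the same embryo is not given in the sources used here, and the fits treat all libraries as independent. In such whole tissues, fewer cells of a type and less RNA per cell cannot be told apart.

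Actin is held as monomers or built into filaments. Profilin binds the monomer and hands it to growing filament ends, thymosin β4 keeps monomers in reserve, and cofilin severs old filaments. Bundling proteins such as plastin 3 join filaments side by side, coronins bind their sides, capping proteins close their ends, and the GTPase RhoA signals to many of these factors. In neurons this machinery shapes the growth cone and the nerve terminal. Plastin 3 and coronin 1C are known as modifiers of SMA, and profilin 2 and RhoA signalling through ROCK have been studied in SMA models.

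Library totals lay between 3683842 and 12793955 counts, with 3683842 to 9117017 in brain and 5162190 to 12793955 in spinal cord. In spinal cord the 3 control libraries held at least 10315064 counts and the 3 SMA libraries at most 8027322, so depth and genotype cannot be told apart there. In controls every brain library held fewer counts than any spinal cord library, so depth and tissue cannot be told apart in that genotype. In SMA embryos the ranges were 3683842 to 5406430 in brain and 5162190 to 8027322 in spinal cord, with little overlap. The tissues were as labelled by their position genes. The summed level of 8 Hox genes was 389 to 688 normalized CPM (counts scaled to a common library total) in spinal cord and 2.19 to 5.58 in brain, and the brain gene Otx2 was at 87.4 to 134 CPM in brain. Control spinal cord library 1 stood apart, with 41.1 CPM of Otx2 against 0.948 to 8.39 in the other 5 spinal cord libraries, and with 160 CPM of the mitosis gene Top2a against 21.6 to 40.7. Values without that library are given beside the differences of the members that it moved furthest or whose call it changed.

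Sequence was at hand for the promoters of the members other than Actb, as RefSeq windows of 300 bases from 250 before to 50 after the start. The CArG box, which the actin-regulated pair of SRF and MRTF binds, was searched by its letters on both strands. It was found in 1 of the 9 members with a window, Actg1, and in 1.63% of all 32851 windows. The stretch around it is shown because Actg1 is 1 of the 2 actin genes whose levels moved together below. It lies at chr11:120348531-120348630 (GRCm38.p6, minus strand), and the capitals mark the box, which begins 90 bases before the start.
Actg1: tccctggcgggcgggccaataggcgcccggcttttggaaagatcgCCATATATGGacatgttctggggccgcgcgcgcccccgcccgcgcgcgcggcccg
No other member with a window had these letters in it. The match is a description of the window, with no readout of the factor.

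The 2 cytoplasmic actins were the most abundant members in all 4 groups. Levels of different genes are compared per length, as normalized CPM per kilobase of exon length (RPKM), with the factors of all 12 libraries. Actb (chr5:142903115-142907976), which codes for β-actin, had 827 ± 215 RPKM (SD, n = 3) in control brain and 966 ± 133 in SMA brain, and in spinal cord 483 ± 34.3 in controls and 705 ± 89.5 in SMA embryos. Actg1 (chr11:120345687-120348495), which codes for γ-actin, followed with 466 ± 80.6, 547 ± 73.4, 305 ± 21.9 and 428 ± 45.2 RPKM in the same order of groups. Actb lay above Actg1 in every library, and the ranges of the 2 genes did not overlap in any group. Their proteins are nearly identical, their coding sequences are alike but not identical, and reads with several alignments were kept. The share of footprints that align to both genes was not measured here. How footprints were split between the pair, or with processed pseudogenes of either, is therefore uncertain.

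Below the actins came the genes that hold or turn over monomers. Cfl1 (chr19:5490455-5494031), which codes for cofilin 1, had 371 ± 74.4 RPKM in control brain and 420 ± 46.9 in SMA brain, and in spinal cord 219 ± 27.2 in controls and 286 ± 56.1 in SMA embryos. Tmsb4x (chrX:167207093-167213479), for thymosin β4, had 271 ± 70.2, 316 ± 49.8, 155 ± 14.2 and 190 ± 19.6 RPKM. The Cfl1 and Tmsb4x ranges overlapped in both brain groups and in neither spinal cord group, and Cfl1 overlapped Actg1 in control brain. Pfn1 (chr11:70651844-70656799), the widely expressed profilin, had 91.6 ± 10.3, 104 ± 2.02, 64.1 ± 9.07 and 75.5 ± 16.1 RPKM. Pfn2 (chr3:57841895-57847757), the neuronal profilin, had 62.7 ± 6.90, 67.2 ± 5.05, 61.5 ± 8.48 and 76.6 ± 12.3 RPKM. In brain Pfn1 was above Pfn2 without overlap, and in spinal cord the 2 ranges overlapped in both genotypes.

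The filament binders and RhoA were lower. Coro1c (chr5:113842439-113908706) had 38.4 ± 1.14 RPKM in control brain and 37.1 ± 2.84 in SMA brain, and in spinal cord 28.4 ± 0.861 in controls and 29.6 ± 1.69 in SMA embryos. Rhoa (chr9:108306160-108337943) had 37.8 ± 4.59, 36.2 ± 1.01, 26.4 ± 0.711 and 28.9 ± 4.35 RPKM, and it overlapped Coro1c in all groups except control spinal cord. Pls3 (chrX:75785653-75875182) had 18.4 ± 4.51, 18.7 ± 0.516, 23.2 ± 1.40 and 18.7 ± 1.81 RPKM. Capg (chr6:72538282-72562983), a gelsolin-family capping protein known from macrophages, was the lowest member in every group, with 3.53 ± 0.240, 1.56 ± 0.687, 3.05 ± 0.471 and 4.16 ± 1.55 RPKM and only 9 to 95 counts in a library. Pls3 and Tmsb4x are on the X chromosome, both sexes were used in the study, and the sex of each library was not analysed here.

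**Figure D1:**
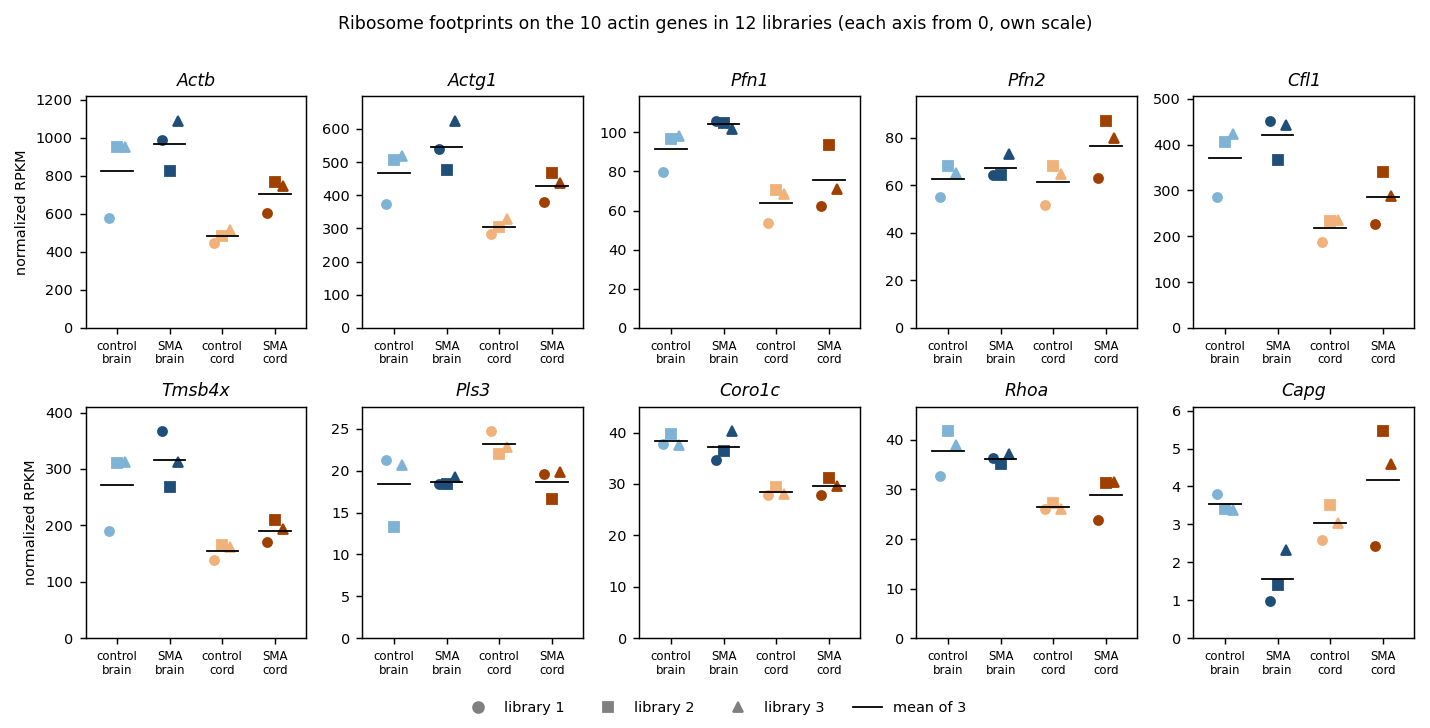
Normalized RPKM (y, from 0, own scale for each gene) of the 10 members in the 12 libraries, by group (x). Points are libraries, shaped by replicate number, and bars are means of 3. Control brain library 1 has the lowest Actb, Actg1, Cfl1 and Tmsb4x of the brain libraries, and Capg in the 3 SMA brain libraries lies below the other 9.

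Together the 10 genes took 0.591% ± 0.107 (SD, n = 3) of all footprints in control brain and 0.667% ± 0.0641 in SMA brain, and in spinal cord 0.395% ± 0.0282 in controls and 0.509% ± 0.0628 in SMA embryos. The actin pair made up 52.1% to 60.3% of these member footprints.

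The abundant members moved with library depth. The Actb count stayed between 9669 and 15844, a 1.64-fold range, while the library totals spanned 3.47-fold. Cfl1 counts spanned 1.64-fold and Tmsb4x counts 1.70-fold, whereas Pfn2 counts spanned 3.09-fold and Coro1c counts 2.90-fold. Of the 66 pairs of libraries, the deeper had the lower normalized CPM of Actb in 65, of Actg1 in 65, of Tmsb4x in 62 and of Cfl1 in 61. For Pfn1 this held in 56 pairs, for Rhoa in 52, for Coro1c in 51, for Pfn2 in 42, for Capg in 27 and for Pls3 in 13. The 12 libraries include both tissues and genotypes, and the deepest are the control spinal cord libraries, so these counts carry no test.

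Libraries of like depth can be set side by side. Control brain library 1, the deepest of brain with 9117017 counts, had 1550 CPM of Actb against 2544 and 2551 in control brain libraries 2 and 3, and it lay closer to control spinal cord library 2, with 1293 CPM at 10339264 counts. SMA brain library 2 and SMA spinal cord library 2 held 5406430 and 5162190 counts, and their Actb levels were 2206 and 2056 CPM. Control brain library 2, with 4839144 counts, lay above both at 2544 CPM. These libraries differ in tissue or genotype as well, and the part of depth was not tested. By counts per base of length, Actb ranked below 22 of the 10481 genes, Actg1 below 49 and Cfl1 below 93. The 105 genes in the top 1% on this scale, those 3 included, had a median log2 difference of 0.24 in SMA against control spinal cord and -0.43 in control spinal cord against control brain, beside -0.01 and 0.00 over all genes. The contrasts below are therefore given also from a fit with each library's trend of counts on counts per base taken out. It brought those medians to -0.02 and 0.02. The trend was drawn from these same libraries without regard to group. Taking it out therefore also removes any group difference that densely covered genes share.

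**Figure D2:**
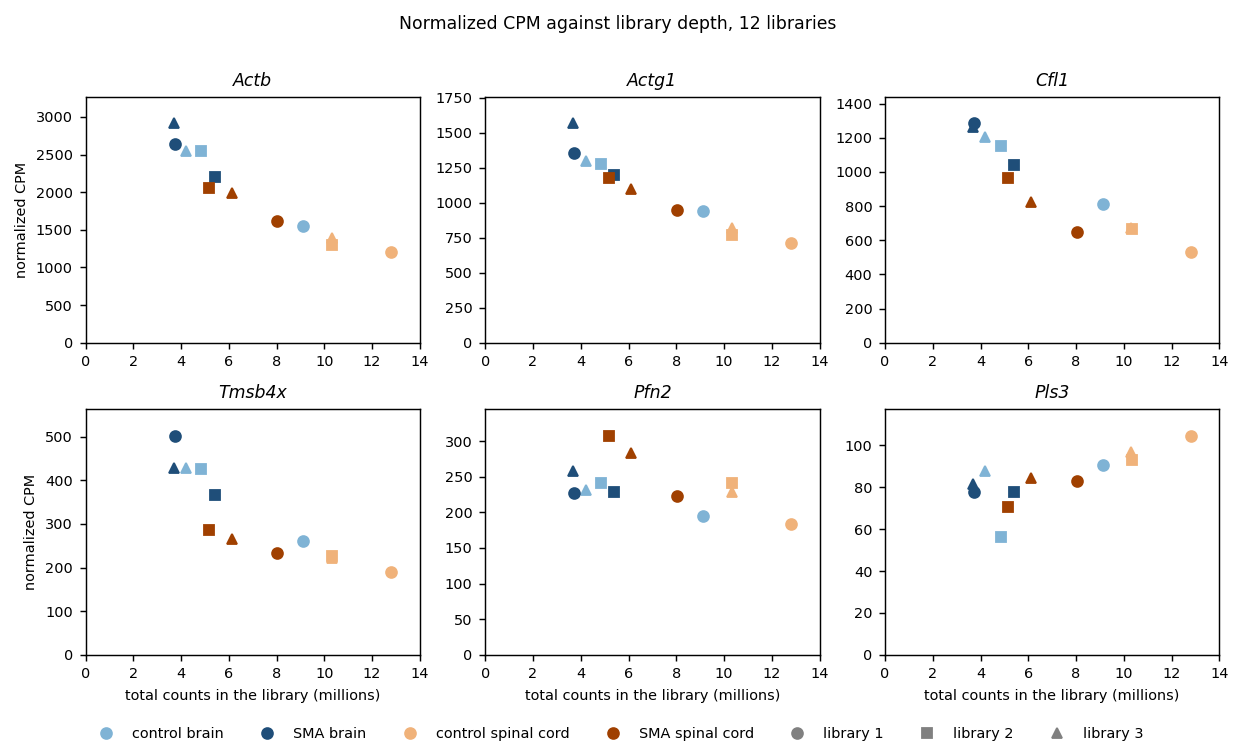
Normalized CPM (y, from 0) of 6 members against the total counts of the library (x). Each point is 1 library, coloured by group and shaped by replicate number. Actb and Actg1 fall with depth in 65 of 66 pairs of libraries across groups, Pfn2 in 42 and Pls3 in 13.

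SMA was then compared with control within each tissue, the contrast of the study, with its thresholds: a mean CPM of 0.05 or more, a log2 fold change of 0.5 or more in either direction, and p below 0.05 before adjustment. In brain 1 of the 10 members was past them, Capg, beside 1.53% of all genes. In spinal cord 1 of 10 was past them, Actb, beside 0.983% of all genes. The groups did not overlap for 2 of 10 members in brain (Pfn1 and Capg), beside 11.6% of the 9409 genes that averaged 20 counts or more, and for 4 of 10 in spinal cord (Actb, Actg1, Tmsb4x and Pls3), beside 14.6% of 9919 genes. Because the list was drawn up with these contrasts known, nothing is read from the counts. No gene of the table had an adjusted p below 0.05 by edgeR in either tissue, where 529 genes in brain and 733 in spinal cord had an unadjusted p below 0.05. DESeq2 gave 0 such genes in brain and 57 in spinal cord.

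In brain the 2 actins and their monomer binders had small positive log2 fold changes, none past the thresholds, and the groups overlapped for all of them except Pfn1. Actb was at 1550, 2544 and 2551 CPM in control brain libraries 1, 2 and 3 and at 2643, 2206 and 2912 CPM in the SMA ones. The low value is the deepest control library, and the other 5 intermix. The log2 fold change was 0.24 ± 0.17 (SE) for Actb, 0.24 ± 0.13 for Actg1, 0.24 ± 0.17 for Tmsb4x, 0.21 ± 0.10 for Pfn1, 0.19 ± 0.14 for Cfl1 and 0.12 ± 0.11 for Pfn2. Pfn1 was at 192, 233 and 236 CPM in the control libraries and 254, 253 and 245 CPM in the SMA libraries, all above the controls. Without control brain library 1 the Actb and Cfl1 values were 0.03, those of Tmsb4x and Pfn2 0.02, and those of Actg1 and Pfn1 0.10. After the counts-per-base trend was taken out, Actb was at 0.08 ± 0.07 and Actg1 at 0.09 ± 0.07.

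The 2 SMA modifiers among the filament binders showed little difference in brain. Pls3 stood at 90.5, 56.1 and 87.8 CPM in the control libraries and 77.9, 77.9 and 81.7 CPM in the SMA libraries, so control library 2 alone lay below the SMA range. Its log2 fold change was 0.03 ± 0.15, and -0.15 without control library 2. Coro1c (-0.03 ± 0.09) and Rhoa (-0.05 ± 0.10) differed by less than their errors.

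Capg was the member with the widest difference in brain. Its counts were 88, 41 and 35 in the control brain libraries and 9, 19 and 21 in the SMA brain libraries, or 9.63, 8.62 and 8.54 CPM against 2.46, 3.53 and 5.86 CPM. The control libraries lay close together and above all SMA libraries. The log2 fold change was -1.18 ± 0.28, a 2.27-fold lower level, and -1.09 ± 0.28 with the trend taken out. Each brain library left out in turn gave values from -1.53 to -0.97, all past the thresholds, while the adjusted p by edgeR was 0.902. Of 10 macrophage and microglia markers, 4 could be followed, and their summed level was 19.8 to 36.4 CPM in control brain and 29.7 to 29.8 CPM in SMA brain. Cd68, 1 of the 4, was at 1.09, 3.99 and 1.22 CPM in control brain and 0.273, 1.67 and 0.837 CPM in SMA brain. Their part in the Capg value was not tested.

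In spinal cord the actins were higher in all 3 SMA libraries. Actb was at 1202, 1293 and 1386 CPM in the control libraries and 1613, 2056 and 1994 CPM in the SMA libraries, without overlap. Its log2 fold change was 0.53 ± 0.10, a 1.45-fold higher level, with an adjusted p of 0.684 by edgeR and 0.000204 by DESeq2. Actg1 was at 712, 766 and 822 CPM against 951, 1174 and 1099 CPM, with a log2 fold change of 0.48 ± 0.09. The order of these 6 libraries by Actb level is the reverse of their order by depth. After the counts-per-base trend was taken out, Actb was at 0.26 ± 0.05 and Actg1 at 0.21 ± 0.04, and 0 of 10 members were past the thresholds. The part of depth was not tested.

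Leaving out 1 spinal cord library moved which members were past the thresholds. Actb fell below a log2 fold change of 0.5 without control library 1 (0.49), the one with the most Otx2, and without SMA library 2 (0.46) or SMA library 3 (0.50, just under). Without control library 3, Actb and Actg1 were past them. Without SMA library 1, the deepest of the SMA libraries, Actb (0.63), Actg1 (0.55), Cfl1 (0.51) and Capg (0.71) were past them.

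For the other monomer binders in spinal cord the log2 fold changes were positive, none was past the thresholds, and the groups overlapped for Cfl1, Pfn2 and Pfn1. The log2 fold changes were 0.37 ± 0.15 for Cfl1, 0.31 ± 0.15 for Pfn2, 0.28 ± 0.11 for Tmsb4x and 0.22 ± 0.17 for Pfn1, and with the trend out 0.12 ± 0.08, 0.20 ± 0.11, 0.08 ± 0.06 and 0.12 ± 0.13. Without control spinal cord library 1 they were 0.27, 0.20, 0.21 and 0.11 in the same order, and without SMA library 2 the Pfn1 value was 0.04 and the Cfl1 value 0.22. Tmsb4x was at 190, 226 and 222 CPM in control and 233, 286 and 264 CPM in SMA libraries, which did not overlap, although the highest control and the lowest SMA library lay close. Coro1c (0.05 ± 0.07) and Rhoa (0.12 ± 0.12) differed by no more than their errors. Capg was at 6.53, 8.91 and 7.68 CPM in control and 6.17, 13.8 and 11.6 CPM in SMA spinal cord, with a log2 fold change of 0.43 ± 0.31, and SMA library 1 lay below all controls. Without SMA library 2 the value was 0.18.

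Pls3 was the member with a negative log2 fold change in spinal cord. It was at 105, 93.1 and 96.7 CPM in the control libraries and 83.2, 70.5 and 84.3 CPM in the SMA libraries, without overlap. The log2 fold change was -0.32 ± 0.10, short of the fold threshold, and -0.31 ± 0.10 with the trend taken out. It lay between -0.36 and -0.25 with each library left out, and at -0.26 without control library 1. The unadjusted p of 0.0149 was 1 of 5 below 0.05 among the members, beside 6.99% of all genes, and the adjusted p was 0.684. Across all 12 libraries Pls3 was lower in the deeper library in 13 of 66 pairs and higher in the others, and the control spinal cord libraries, where it was higher, are all deeper than the SMA ones. The part of depth was not tested.

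**Figure D3:**
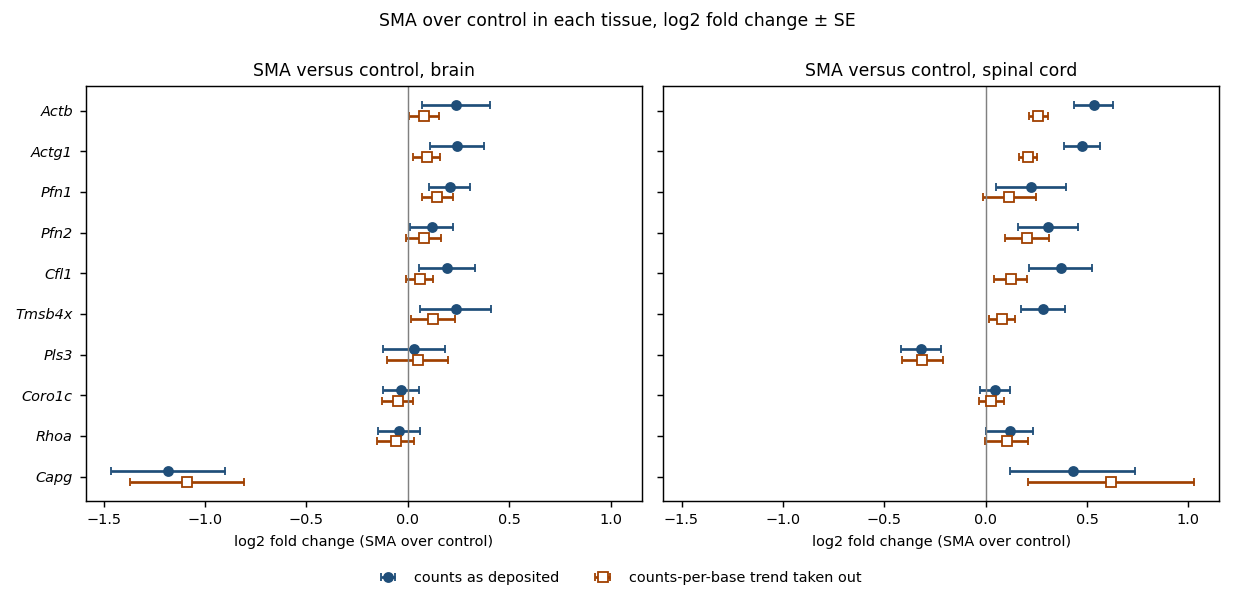
The log2 fold change of SMA over control (x) with its SE for the 10 members (y) in brain (left) and spinal cord (right), from the counts as deposited (circles) and after the counts-per-base trend was taken out (squares). Taking out the trend moves Actb in spinal cord from 0.53 to 0.26 and leaves Pls3 at -0.31 and Capg in brain at -1.09.

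The tissues were compared in each genotype by a fit over all 12 libraries, in which a gene was called with an adjusted p below 0.05. In control embryos 7 of 10 members were called, beside 41.1% of all genes. All 7 were lower in spinal cord, where 21.1% of all genes were called lower and 20.1% called higher. In SMA embryos 6 of 10 were called, beside 40.4% of all genes, with 5 lower (19.3% of all genes) and 1 higher (21% of all genes). The 2 contrasts share no library. All control spinal cord libraries were deeper than all control brain libraries, and the part of depth in these contrasts was not tested. Leaving out 1 library gave 6 to 8 called members in controls and 3 to 7 in SMA embryos, with 3 without SMA brain library 1 or SMA spinal cord library 1, where Pfn1, Cfl1 and Rhoa were lost.

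Tmsb4x, Cfl1, Pfn1, Coro1c and Rhoa were lower in spinal cord in both genotypes. Tmsb4x was at 261, 427 and 428 CPM in control brain and 190, 226 and 222 CPM in control spinal cord, where each brain library exceeded each spinal cord library. Its log2 fold change was -0.80 ± 0.18 in controls (adjusted p by edgeR 0.00381) and -0.73 ± 0.18 in SMA embryos (0.00672). Cfl1 gave -0.76 ± 0.17 and -0.56 ± 0.17, and Pfn1 -0.51 ± 0.15 and -0.47 ± 0.15. The Pfn1 call in controls was lost without control spinal cord library 1 (-0.40) or control brain library 2 (-0.47) or 3 (-0.46), and that in SMA embryos without SMA brain library 1 or 2 (-0.46 for both) or SMA spinal cord library 1 (-0.35) or 3 (-0.43). The Cfl1 call in SMA embryos was lost without SMA brain library 1 (-0.50) or 3 (-0.52) or SMA spinal cord library 1 (-0.42).

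Coro1c varied little between libraries of a group. It was at 366, 384 and 364 CPM in control brain and 269, 284 and 270 CPM in control spinal cord, and at 335, 352 and 389 CPM against 269, 302 and 287 CPM in SMA embryos. The log2 fold changes were -0.43 ± 0.07 (adjusted p by edgeR 0.000623) and -0.33 ± 0.07 (0.0039). Rhoa gave -0.51 ± 0.11 and -0.32 ± 0.11, the latter with an adjusted p by edgeR of 0.0384 that was lost without SMA spinal cord library 1 (-0.20) or any 1 of the SMA brain libraries (-0.35 to -0.31). The Rhoa call in SMA embryos was also lost in a fit of the SMA libraries alone (-0.32). Coro1c lies at the 74.2 percentile of all genes by counts per base and Rhoa at the 72.9 percentile. Taking out the trend left Coro1c at -0.40 ± 0.06 and -0.32 ± 0.06 and Rhoa at -0.48 ± 0.10 and -0.32 ± 0.10, all called.

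For the actins the difference between tissues shrank once the trend was taken out, a step that also removes any tissue difference shared by densely covered genes. Actb was lower in control spinal cord by a log2 fold change of -0.77 ± 0.17 and Actg1 by -0.61 ± 0.13, and the trend-free values were -0.29 ± 0.09 and -0.14 ± 0.06, the latter not called. In SMA embryos Actb gave -0.45 ± 0.17 and Actg1 -0.35 ± 0.13, with adjusted p-values by edgeR of 0.0515 and 0.0511, and the trend-free values were -0.16 ± 0.09 and -0.05 ± 0.06. Cfl1 went to -0.32 ± 0.08 in controls and -0.29 ± 0.08 in SMA embryos and Tmsb4x to -0.40 ± 0.11 and -0.48 ± 0.11, all 4 still called. Without control spinal cord library 1, the 6 members other than Pfn1 were still called in controls.

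Pfn2, Pls3 and Capg did not share the lower level in spinal cord. Pfn2 differed by -0.03 ± 0.14 in controls and 0.19 ± 0.14 in SMA embryos, neither called, and by 0.16 ± 0.10 and 0.31 ± 0.10 with the trend out, where the SMA value was called higher. Without control spinal cord library 1 the values in controls were 0.08 for Pfn2 and -0.11 for Capg. Pls3 was at 0.33 ± 0.15 in controls, with an adjusted p by edgeR of 0.103, and 0.00 ± 0.15 in SMA embryos. Without control brain library 1 the value in controls was 0.45 and was called. Capg was called higher in SMA spinal cord than SMA brain by 1.41 ± 0.34 (adjusted p by edgeR 0.00625), with 6.17, 13.8 and 11.6 CPM above 2.46, 3.53 and 5.86 CPM, and stood at -0.22 ± 0.31 in controls. The followed macrophage markers summed to 29.7 to 29.8 CPM in SMA brain and 39.0 to 66.5 CPM in SMA spinal cord, and to 19.8 to 36.4 and 47.0 to 61.9 CPM in controls. Their part was not tested.

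**Figure D4:**
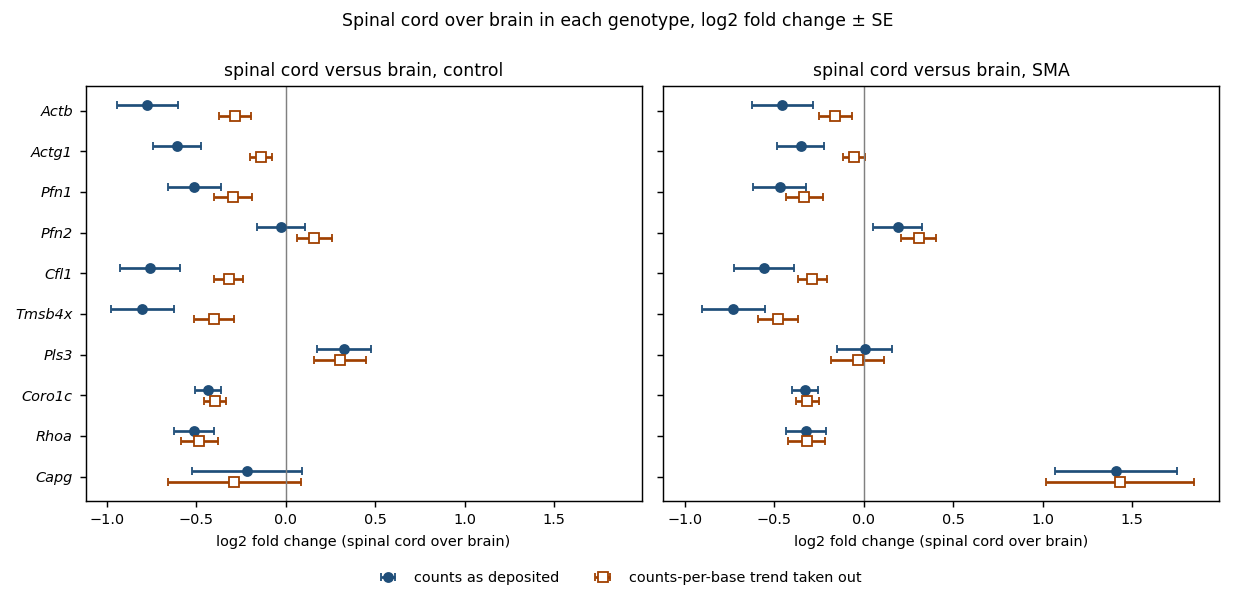
The log2 fold change of spinal cord over brain (x) with its SE for the 10 members (y) in control (left) and SMA embryos (right), from the counts as deposited (circles) and after the counts-per-base trend was taken out (squares). Coro1c and Rhoa keep their place in both, Actb moves from -0.77 to -0.29 in controls, and Capg lies at 1.41 in SMA embryos.

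Whether the SMA difference was unlike in the tissues was tested as the interaction of tissue and genotype. It was called for 0 of 10 members and for 0% of all genes by edgeR. DESeq2 also called none, and 249 genes by edgeR and 198 by DESeq2 had an unadjusted p below 0.05. The interaction is built from the SMA contrasts that were known when the members were chosen, so their values are a description. The SMA difference of Capg in spinal cord exceeded that in brain by 1.63 ± 0.46 on the log2 scale, with an adjusted p of 1 by edgeR. Pls3 had -0.32 ± 0.22 and Actb 0.32 ± 0.24.

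Ratios of paralogues within a library do not depend on the scaling between libraries. The Pfn2 to Pfn1 ratio of counts per base was 0.688, 0.703 and 0.664 in control brain libraries and 0.607, 0.613 and 0.716 in SMA brain libraries. In spinal cord it was 0.966, 0.966 and 0.945 in controls and 1.01, 0.931 and 1.13 in SMA embryos. Each spinal cord library was thus above each brain library. The mean log2 ratio was higher in spinal cord by 0.49 in controls and 0.67 in SMA embryos, each with p = 0.1 in a 2-sided exact permutation test, the smallest p that 3 libraries against 3 allow, and 0.2 adjusted over the 8 ratio comparisons. SMA and control differed by -0.09 in brain and 0.09 in spinal cord (exact permutation p = 0.4 for both, adjusted 0.457).

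The Actg1 to Actb ratio had geometric means between 0.566 and 0.632 in the 4 groups. It was 0.645, 0.535 and 0.543 in control brain and 0.547, 0.579 and 0.573 in SMA brain, where control library 1 alone was high. In spinal cord it was 0.632, 0.632 and 0.633 in controls and 0.629, 0.609 and 0.588 in SMA embryos, where each library was below each control. SMA and control differed by -0.06 in spinal cord (exact permutation p = 0.1, adjusted 0.2) and by -0.02 in brain (exact permutation p = 1), a sign that turned without control brain library 1 (0.07). Spinal cord and brain differed by 0.14 in controls (exact permutation p = 0.4) and 0.10 in SMA embryos (exact permutation p = 0.1). In SMA embryos each spinal cord library was above each brain library. This ratio also went with depth. Control brain library 1, the deepest of brain, had the highest ratio of the 12 libraries. The control spinal cord libraries, all deeper than the SMA ones, had the next highest. The part of depth in these differences was not tested. With footprints open to a split between the pair, the ratio bounds no difference in either gene.

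**Figure D5:**
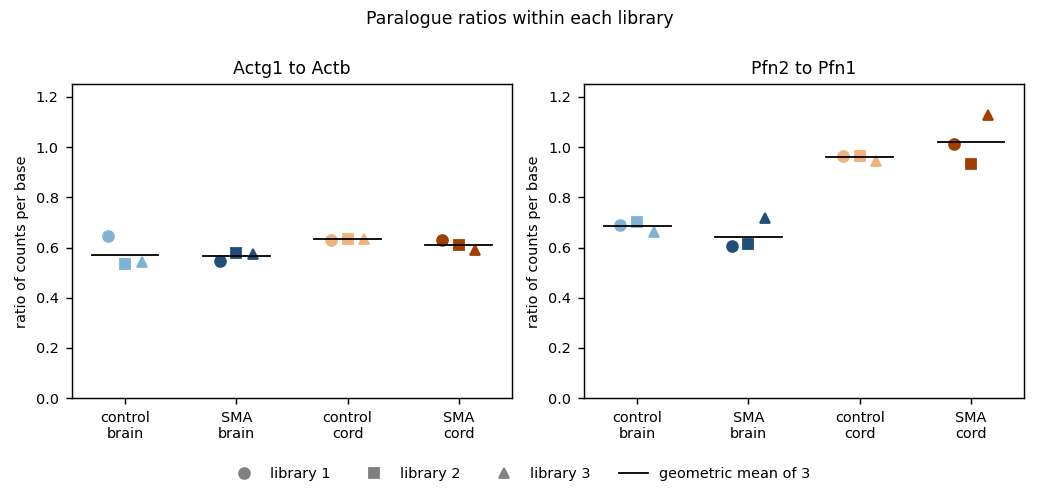
Ratio of counts per base within each library (y, from 0) of Actg1 to Actb (left) and Pfn2 to Pfn1 (right), by group (x). Points are libraries, shaped by replicate number, and bars are geometric means of 3. The Pfn2 to Pfn1 ratio is 0.607 to 0.716 in brain and 0.931 to 1.13 in spinal cord.

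Of 118 other genes, 34 could be followed, since 1999 of the 10481 genes had a name at hand. The 118 were actin genes listed by role and 2 further SMA modifiers, of which 1, Chp1, is among the 34. All are counted together as the other actin genes. In SMA against control brain 1 of the 34 was past the study's thresholds, with a lower level, beside 1.53% of all genes, and the list had a median log2 fold change of 0.00 beside 0.00 over all genes. That gene was Gmfg, an actin debranching factor of blood cells, with 3.39 ± 1.52 CPM in control and 1.41 ± 1.09 CPM in SMA brain. Its counts ran from 1 to 42, and its log2 fold change was -1.28 ± 0.54. In spinal cord 0 of 34 were past them, beside 0.983% of all genes, with a median of -0.02 beside -0.01. Leaving out 1 library gave 0 to 2 in either tissue. Chp1, an inhibitor of calcineurin known as a modifier of SMA, was at 78.4 ± 8.53 CPM in control brain and 66.9 ± 13.5 in SMA brain, and in spinal cord at 71.8 ± 7.77 in controls and 75.2 ± 10.6 in SMA embryos.

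Between the tissues 12 of the 34 were called in controls, beside 41.1% of all genes, with 9 higher (20.1% of all genes) and 3 lower (21.1%) in spinal cord. In SMA embryos 14 were called, beside 40.4% of all genes, with 9 higher (21%) and 5 lower (19.3%). The shares called in either direction together are near those over all genes. Taken by direction, the share called higher was above that over all genes in both genotypes. The share called lower was below it, most so in controls with 3 of 34 beside 21.1%. Nothing is read from these counts. Leaving out 1 library gave 8 to 13 called in controls and 11 to 14 in SMA embryos. The medians were -0.01 and 0.04, beside 0.00 and 0.02 over all genes, and -0.51 and -0.34 over the 10 members. Sptb, a β-spectrin of the membrane skeleton, was higher in spinal cord by 2.12 ± 0.19 in controls and 1.96 ± 0.19 in SMA embryos. Wasf1, which activates the Arp2/3 complex, was among the 3 with the smallest p in controls (0.73 ± 0.10), and Vcl, for vinculin, in SMA embryos (1.00 ± 0.13). Myh10, the heavy chain of nonmuscle myosin IIB, was lower by -0.44 ± 0.06 and -0.42 ± 0.06, and the Arp2/3 subunit gene Arpc5 by -0.37 ± 0.10 and -0.55 ± 0.11. The third of the lower genes was Dstn, for the cofilin relative destrin, in controls (-0.34 ± 0.10) and Twf1, for the monomer binder twinfilin 1, in SMA embryos (-0.39 ± 0.09).

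The genes whose pattern over the 12 libraries was most like that of Actb, Pls3 and Capg were sought among 1928 named genes that averaged 20 counts or more, by the root mean square distance of log2 CPM centred on each gene's mean. For Actb they were Tubb5 (0.0787), Actg1 (0.0935) and Prdx2 (0.101). Tubb5 was at 1342, 1523, 830 and 1118 CPM on average in control brain, SMA brain, control spinal cord and SMA spinal cord, an order that Actb shares. For Pls3 the nearest were Med15 (0.101), Ncstn (0.123) and Bop1 (0.126). For Capg they were Nid1 (0.371), Esam (0.427) and Rab21 (0.442), at larger distances than for the other 2.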

How the data were processed

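Footprints were measured by the authors in 12 libraries, and the deposited values are raw counts per gene with a gene length in bases. Per the labels and the paper's methods, reads were trimmed (cutadapt 4.1), cleared of rRNA and tRNA, and aligned with STAR 2.5.3a to GRCm38.p6 with several alignments per read allowed. Reads at the same transcript position were removed, a step that can lower counts of densely covered genes more in deeper libraries; whether the deposited counts precede it is not given in the sources used here, nor is the counting tool. Genes low in FPKM in all replicates of a condition were dropped by the authors, leaving 10481. Lengths are exon unions, so RPKM is not per coding base.

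The members and lists were chosen with earlier results of these data known. Counts were tested with edgeR 4.0.16 (TMM, estimateDisp, glmQLFit, glmQLFTest, 2-sided, Benjamini-Hochberg over all genes) in R 4.3.3, in 6 libraries per tissue or over all 12. The SE is the unshrunk log2 fold change over the square root of F. The trend on counts per base was a lowess curve (span 0.3) for each library, passed to edgeR as offsets. Normalized CPM uses TMM factors of the 12 libraries. Exact tests ran in scipy 1.17.1 and figures in matplotlib 3.10.9. Alternatives were DESeq2 1.42.0, library size alone, upper-quartile factors, filterByExpr, the trend, the replicate block, other sets of libraries in the fit, and each library left out. The fits were tested on simulated data. Library pairs within a group differed by a chi-square per gene of 3.98 to 23.7, so each counted once. Named genes are the members, other actin genes past the thresholds of the study, the 3 per direction with the smallest p between tissues, and the 3 nearest to Actb, Pls3 and Capg; some of the genes and markers these lists name are not reported here. Names other than members' came from the study's gene table, of which 1999 lines were at hand, with columns of the authors' own comparisons that were not used. Of 4 endothelial markers none, of 5 red blood cell and 4 mesenchyme markers 1 each could be followed (Slc4a1, 1.04 to 10.7 CPM, and Col1a1, 2.46 to 53.4 CPM). The followed neuron markers summed to 3229 to 4389 CPM and the progenitor markers to 707 to 1070 CPM. Levels per coding length were not run, for want of coding lengths.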

Additional observations from a re-analysis of the deposited data

Results flagged for a closer look

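Capg was picked out by the interaction of tissue and genotype, which passed by edgeR before adjustment and not after it, with an adjusted p of 1 over all genes. The members were chosen with both SMA contrasts known and the interaction is built from them, so the test is no support and the values are a description. On the log2 scale the difference in spinal cord exceeded that in brain by 1.63 ± 0.46, with -1.18 in brain and 0.43 in spinal cord. All 3 SMA brain libraries were below all 3 control brain libraries, and 2 of 3 SMA spinal cord libraries were above all 3 controls. Each library left out in turn gave 1.36 to 1.99. The counts were 9 to 95 in a library.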

How the results depend on the processing

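Of the 700 log2 fold changes of members under other settings, 636 kept their direction and their side of the threshold, 20 fell short of it, 19 came to pass it and 25 changed sign. In brain, DESeq2 put 0 of the other actin genes past the thresholds against 1, and 1 library left out gave 0 to 2. In spinal cord the trend on counts per base left 0 members past them, 1 library left out gave 0 to 4 members and 0 to 2 of the other actin genes, and the fit over all 12 libraries gave 1 of those. Whether the replicate numbers pair the libraries could not be settled. Correlations of the deviations of same-numbered libraries lay between -0.15 and 0.02 in brain and at 0.22, 0.69 and -0.46 in spinal cord. Across tissues they were all positive, between 0.01 and 0.13 in controls and between 0.10 and 0.32 in SMA embryos. In each comparison some libraries were closest to another number, and a shared embryo across tissues is not excluded. With the replicate block 1 of the other actin genes was past the thresholds in spinal cord, where 0 was without it. Between tissues in SMA embryos, Actb (-0.45) and Actg1 (-0.35) became called with the replicate block. They also did with DESeq2, upper-quartile factors, filterByExpr and a fit of that genotype alone. That last fit lost the Rhoa call (-0.32).

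The sign changes of the members' log2 fold changes all started from values smaller than their own errors in the main fit. The value under the other setting could exceed its error, as for Pfn2 in controls without the trend (0.16 ± 0.10). Between tissues in controls, Pfn2 went from -0.03 to 0.033 with library size alone and 0.16 without the trend, and lay between -0.12 and 0.082 with 1 library left out. In SMA embryos Pls3 went from 0.00 to -0.074 with upper-quartile factors, -0.035 without the trend and -0.0019 with the replicate block, and lay between -0.041 and 0.064 with 1 library left out. For the interaction without the trend, Pfn1 was at -0.036 and Tmsb4x at -0.075, and 1 library left out gave -0.16 to 0.17 and -0.040 to 0.28. In SMA against control brain, 1 library left out gave -0.15 to 0.15 for Pls3, -0.095 to 0.0085 for Coro1c, -0.15 to 0.034 for Rhoa and -0.064 to 0.071 for the log2 Actg1 to Actb ratio. Between tissues in SMA embryos 1 library left out gave 3 to 7 called members. The causes were not tested. Of the 40 group levels, 1 moved by more than its SD with library size alone, Rhoa in control spinal cord (27.2 against 26.4 RPKM). Depth differs with genotype in spinal cord and with tissue in controls, and Capg rests on 9 to 95 counts.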
